A study of Mus musculus with 26 samples.

Results

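RNA recovered by immunoprecipitation of hnRNPK from nuclear extract of obese mouse liver was compared between the 2 obesity models of the study. These were leptin-deficient ob/ob mice and mice on a high-fat diet. The comparison rests on 4 of 26 libraries, chosen by title: nuclear hnRNPK immunoprecipitation (IP) from ob/ob mice (B6.V-Lepob/J, fed normal diet), replicates 1 and 2, and from C57BL/6J mice on high-fat diet, replicates 1 and 2. The ob/ob group thus differs from the high-fat diet group in both genotype and diet. Nuclear IP from wild-type mice (C57BL/6J, fed normal diet, 2 libraries), total liver RNA and cytoplasmic IP of the same mouse groups, and 1 nuclear library with control IgG from mixed mice were used as further references. Age, sex, the length of the diet and whether the replicates were separate animals are not given in the sources used here, so each p-value covers the spread between libraries alone, and that spread may be technical.

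hnRNPK is a heterogeneous nuclear ribonucleoprotein that binds single-stranded, cytosine-rich RNA and DNA through KH domains. It moves between nucleus and cytoplasm and takes part in splicing, RNA stability and translation. Leptin is a hormone of fat tissue that limits food intake. Mice without it overeat and develop obesity and a fatty liver, while wild-type mice on a high-fat diet become obese with an intact leptin gene.

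The deposited tables name transcripts by identifier and group them into numbered clusters, with no gene symbols, and none of the tables used here links these identifiers to genes. Each cluster is therefore given by its most counted isoform's identifier, with no gene name, function or position, and the labelled tissue could not be checked against marker genes. Values are CPM (a cluster's counts relative to the library's total), scaled for library composition within each kind of RNA by TMM, a trimmed mean of ratios between libraries. They are relative levels. They do not show how much RNA the beads held, and in whole tissue fewer cells of a type and less RNA per cell cannot be told apart.

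Total counts were 5517528 and 7216376 in the ob/ob nuclear IP libraries, 6780896 and 5336060 in those of high-fat diet, and 10581089 and 8834174 in those of wild type. The nuclear IgG library held 3116786 counts. Across 11531 clusters, Pearson's r of log2 CPM was 0.970 between the ob/ob libraries and 0.967 between the high-fat diet libraries, against 0.938 to 0.951 between the mouse models. The SD of the log2 difference across clusters was 0.50 within ob/ob and 0.54 within high-fat diet, against 0.64 to 0.74 between them. Clusters are not independent, and these values describe likeness only.

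High-fat diet replicate 2 stood apart from the other nuclear IP libraries in composition. A single cluster, uc012ath.2 (5818 nt, 1 isoform), was the most counted in each of them. Its share was 21.8% and 22.4% of the counts in ob/ob, against 29.5% and 41.2% in high-fat diet. In wild type it took 18.6% and 21.6%. The 95% Wilson intervals of these shares reach at most 0.0418 percentage points to either side and cover counting error only. In the nuclear IgG library uc012ath.2 took 16.5% of the counts, so a large share was also found with control beads. High-fat diet replicate 2 also had the fewest clusters with at least 1 count, 13414 against 14405 to 15002 in the other 5 nuclear IP libraries, and the smallest TMM factor, 0.665 against 0.950 to 1.17.

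**Figure D1:**
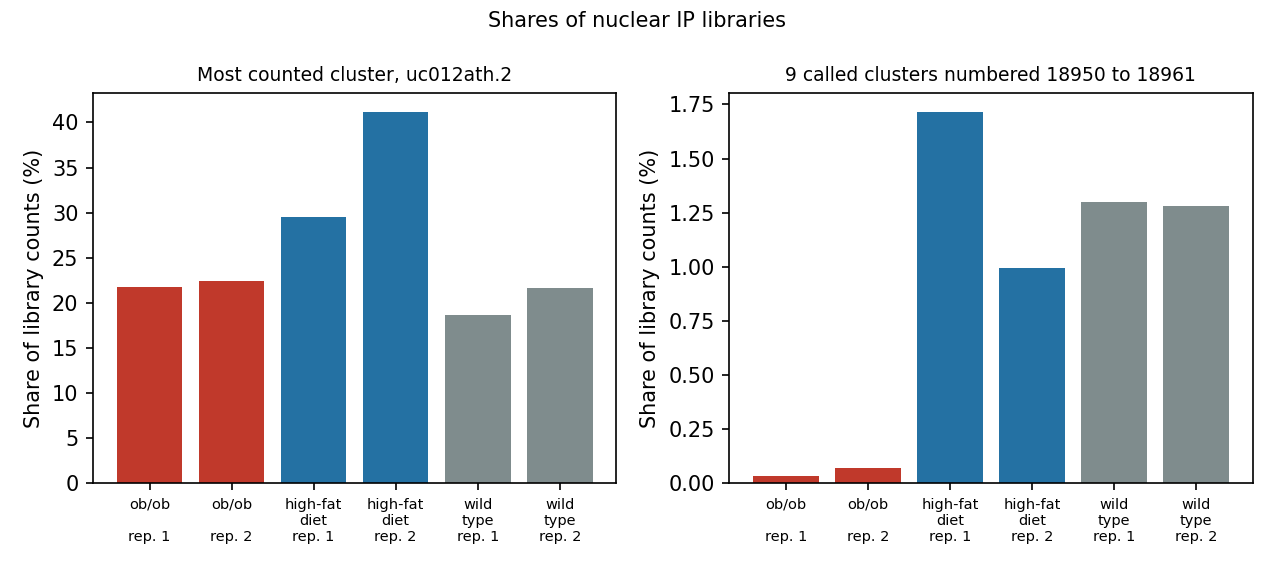
Shares of all counts (%) in each nuclear IP library (bars; 2 libraries per group) for the most counted cluster, uc012ath.2, and for 9 called clusters with neighbouring numbers. The first share is 41.2% in high-fat diet replicate 2 and 21.8% and 22.4% in ob/ob, and the second is below 0.1% only in the ob/ob libraries.

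For uc012ath.2 the log2 fold change of ob/ob over high-fat diet in the nuclear IP was -1.25 ± 0.42 (SE) and did not pass the threshold of 0.05 (edgeR adjusted p = 0.20). It passed with the DESeq2 test (adjusted p = 0.0013) and, with edgeR, without the low-count filter (adjusted p = 7.7e-04) or without either wild-type library (adjusted p = 0.042 and 0.041). Without high-fat diet replicate 2 it was -0.67 (edgeR adjusted p = 0.71). In the nuclear IP both ob/ob libraries lay below both high-fat diet libraries. In the summed total RNA units the order was the other way round, with 28404 and 23229 CPM in ob/ob against 8824 and 12451 CPM in high-fat diet, a log2 fold change of 1.28 ± 0.36 that did not pass either (edgeR adjusted p = 0.13). The 2 total RNA libraries that share ob/ob replicate number 1 differed in this cluster, with 5.14% and 1.22% of their counts, and those of replicate number 2 had 3.38% and 1.50%, so the total RNA level of uc012ath.2 in ob/ob depends on the library. By single library the groups overlapped in total RNA, since high-fat diet ran up to 1.55%. Per transcript length, on the authors' deposited TPM scale, the nuclear IP libraries had 57690 and 62305 TPM of uc012ath.2 for ob/ob, against 81818 and 117782 TPM for high-fat diet.

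Inside the nuclear IP, 139 of 11531 clusters differed between ob/ob and high-fat diet at an adjusted p under 0.05 (edgeR quasi-likelihood test), which is 1.21% of the clusters tested. Of these, 45 were higher in ob/ob (0.39%) and 94 were lower (0.815%). Estimates of at least 2-fold were found for 44 of the higher and 85 of the lower clusters. The log2 fold changes of the higher clusters ranged from 0.91 to 7.69 with a median of 1.82, and those of the lower clusters from -0.87 to -11.42 with a median of -1.64. Over all clusters tested the median log2 fold change was 0.0026 and the median size of it was 0.30. In every called cluster the ob/ob libraries lay wholly above or wholly below the high-fat diet libraries. Such separation was common, found upwards in 23.8% and downwards in 24.2% of all clusters tested. At an unadjusted p under 0.05 there were 852 higher and 924 lower clusters.

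These counts rest on few libraries and on the composition scaling. Without high-fat diet replicate 2, 29 clusters passed, 2 higher and 27 lower, and 28 of them were among the 139. The count was 24, 56 and 44 without ob/ob replicate 2, ob/ob replicate 1 or high-fat diet replicate 1, and 415 and 393 without wild-type replicate 1 or 2, which enter the fit through the shared estimate of spread. By library size only, with no scaling for composition, 797 clusters passed, 713 higher and 84 lower, around a median log2 fold change of 0.48.

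The called clusters held a small part of the libraries. The 45 higher clusters took 2.75% and 3.02% of the counts in ob/ob, against 1.01% and 0.628% in high-fat diet, and 2.00% and 1.80% in wild type. The 94 lower clusters took 0.580% and 0.613% in ob/ob, against 2.99% and 1.88% in high-fat diet, and 2.55% and 2.25% in wild type. Wilson intervals of these shares reach at most 0.0137 percentage points to either side.

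Among the higher clusters, uc008xyp.2 (1260 nt, 1 isoform) had the largest log2 fold change once clusters averaging under 1 on the log2 CPM scale were set aside. It had 43.0 and 43.2 CPM in the ob/ob nuclear IP libraries, against 0.777 and 0.282 CPM in high-fat diet, and 0.726 and 0.536 CPM in wild type. The ob/ob libraries were nearly equal, while high-fat diet and wild type overlapped near the detection limit, with 5 and 1 counts in the high-fat diet libraries. Over high-fat diet its log2 fold change was 6.14 with an SE of 0.37 (edgeR adjusted p = 3.2e-05), and it passed under each alternative run, leaving out each nuclear IP library included. On the deposited TPM scale the nuclear IP libraries had 60.1 and 66.4 TPM of uc008xyp.2 for ob/ob, against 0.980 and 0.260 TPM for high-fat diet. The nuclear IgG library held 6.89 CPM of it.

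The direction of uc008xyp.2 was the same in total RNA, with 31.8 and 53.2 CPM in ob/ob against 0.532 and 0.437 CPM in high-fat diet, where the log2 fold change was 6.45 ± 0.49 (edgeR adjusted p = 0.0096). The total RNA call of uc008xyp.2 was lost when any of the 4 ob/ob or high-fat diet units was left out (edgeR adjusted p = 0.12 to 0.14), at log2 fold changes of 6.02 to 6.77. In the cytoplasmic IP it had 15.8 CPM in each ob/ob library against 0.306 and 0.263 CPM in high-fat diet. The nuclear IP difference less the total RNA difference was -0.27 ± 0.81 on the log2 scale (edgeR adjusted p = 0.97).

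The next higher cluster by this rule, uc007kov.1 (3020 nt, 3 isoforms), was much less abundant. It had 4.94 and 10.3 CPM in ob/ob, against 0.311 and 0 CPM in high-fat diet, and 0.323 and 0 CPM in wild type. Its counts summed to 116 in the ob/ob libraries, against 2 in those of high-fat diet, a ratio of 40.2 on the scaled library sizes (exact 95% interval 10.9 to 336, counting error only). For uc007kov.1 the fit gave a log2 fold change of 5.18 with an SE of 0.94 (edgeR adjusted p = 0.031), and the call was lost when any of the 4 libraries was left out (edgeR adjusted p = 0.064 to 0.29) and with limma voom (adjusted p = 0.096). Without high-fat diet replicate 1, which leaves only the high-fat diet library with 0 counts, the fitted log2 fold change was 8.93. In total RNA it was 3.50 and 5.90 CPM in ob/ob against 0.623 and 0.398 CPM in high-fat diet, in the same direction, with an edgeR adjusted p of 0.054.

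Among the lower clusters, uc008tak.2 (881 nt, 6 isoforms) had the largest difference. It had 0 and 0.600 CPM in ob/ob, against 1494 and 481 CPM in high-fat diet, and 1096 and 1956 CPM in wild type. Summed counts were 5 in ob/ob, all in replicate 2, against 11323 in high-fat diet, so it was 3269-fold lower in ob/ob (exact 95% interval 1401 to 10071, counting error only; edgeR adjusted p = 1.5e-04). The high-fat diet libraries of uc008tak.2 differed more from each other than the wild-type libraries did, and none of these 4 came near ob/ob. Without ob/ob replicate 2, which leaves 0 counts in ob/ob, the fitted log2 fold change was -15.87, against -11.42 with all libraries. The nuclear IgG library held 1041 CPM of it. In total RNA it had 0.366 and 0.467 CPM in ob/ob against 40.5 and 75.0 CPM in high-fat diet, the same direction, and the log2 fold change there was -7.10 ± 0.44 (edgeR adjusted p = 0.0096).

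Cluster uc012dfe.1 (796 nt, 3 isoforms) had no counts in either ob/ob nuclear IP library, against 21.4 and 29.9 CPM in high-fat diet, and 39.4 and 24.6 CPM in wild type. With a floor of 3 counts summed over the ob/ob libraries, its 244 counts in high-fat diet make it about 117-fold lower in ob/ob (edgeR adjusted p = 2.5e-04). The exact 95% interval, for counting error only, starts at 94.8-fold. Total RNA of uc012dfe.1 had 0.175 and 0.195 CPM in ob/ob against 44.8 and 24.8 CPM in high-fat diet, in the same direction (edgeR adjusted p = 0.038). Nuclear IgG held 15.0 CPM of it. Both lower clusters passed with each nuclear IP library left out.

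**Figure D2:**
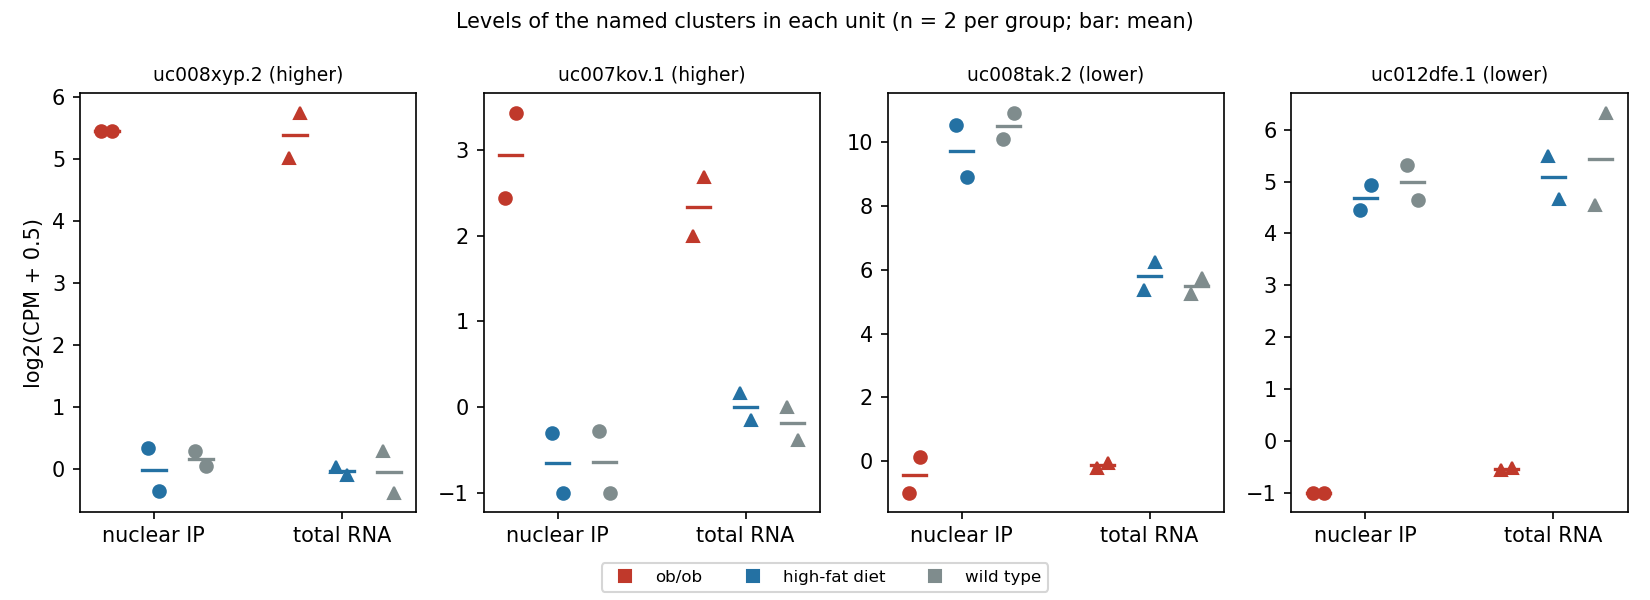
Levels, as log2(CPM + 0.5) scaled within each kind of RNA, of the 2 named higher and 2 named lower clusters in nuclear IP (circles) and total RNA (triangles); each point is 1 library or unit (n = 2 per group) and each bar a group mean. In both kinds of RNA the ob/ob points stand apart from the high-fat diet points, and the wild-type points lie with those of high-fat diet.

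Both named lower clusters belong to a run of neighbouring cluster numbers in the deposited tables, which was picked out after its values were seen. Of the 12 clusters numbered 18950 to 18961, 9 were tested and each of these was lower in ob/ob. The other 3 are at most 391 nt long and were not tested, and the 9 are 796 to 992 nt long. Their log2 fold changes in the nuclear IP ran from -2.35 to -11.42, and in total RNA from -2.63 to -7.73, where 7 of the 9 passed as well. Together the 9 clusters took 0.0341% and 0.0719% of the counts in ob/ob nuclear IP, against 1.71% and 0.994% in high-fat diet, and 1.30% and 1.28% in wild type. In total RNA units they took 0.121% and 0.238% in ob/ob against 3.44% and 3.49% in high-fat diet. Of 7 other clusters tested within 10 numbers of the run, none passed with edgeR. All 7 are numbered below the run. No cluster numbered 18962 to 18971 was tested, so the upper end of the run is not bounded by a tested cluster. The nearest of the 7, numbered 18948, was at -3.46 in the nuclear IP (edgeR adjusted p = 0.13) and -3.39 in total RNA (edgeR adjusted p = 0.028). The authors' estimated counts divide reads among similar transcripts, so calls in this run may not be independent, and the split between its members is uncertain. The order behind the numbers was not given in the sources used here.

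**Figure D3:**
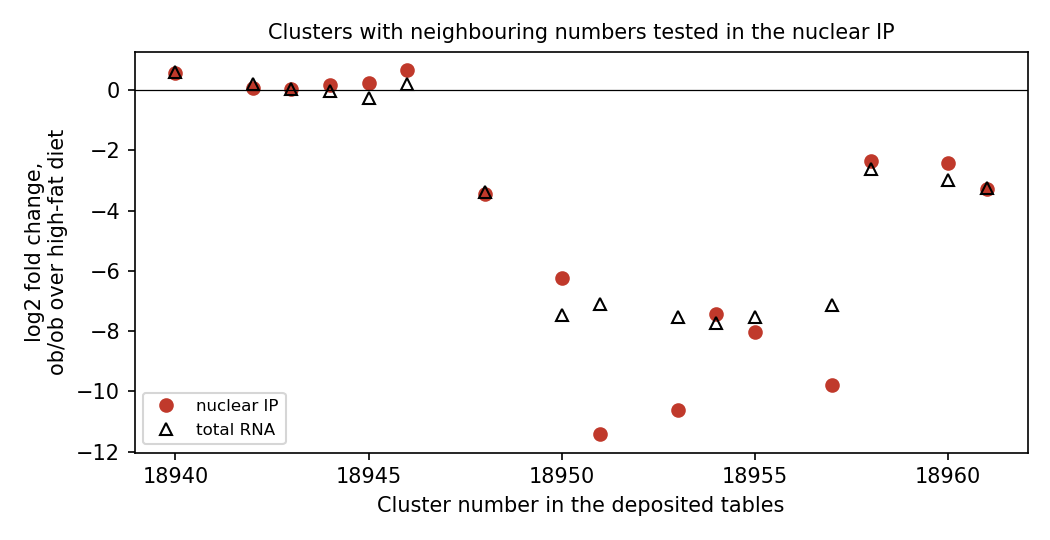
Log2 fold change of ob/ob over high-fat diet (vertical axis) in nuclear IP (filled circles) and total RNA (triangles) for clusters tested in the nuclear IP and numbered 18940 to 18961 (horizontal axis). The 9 tested clusters from 18950 on lie between -2.35 and -11.42 in the nuclear IP and between -2.63 and -7.73 in total RNA; the cluster numbered 18948, outside the run, is at -3.46 and -3.39.

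Wild-type levels of the same clusters were set beside both obesity models, as levels without a test. The median log2 level of the 45 higher clusters was 4.97 and 5.39 in ob/ob, against 3.30 and 3.07 in high-fat diet, and 3.40 and 3.50 in wild type. For the 94 lower clusters it was 4.19 and 4.00 in ob/ob, against 5.95 and 6.01 in high-fat diet, and 5.55 and 5.27 in wild type. Over all 11531 clusters these medians were 3.71 to 3.74 in the 6 libraries. By the mean log2 level, wild type lay nearer to high-fat diet than to ob/ob in 31 of the 45 higher clusters (68.9%) and in 63 of the 94 lower clusters (67.0%), against 54.2% of all clusters tested. In the other 14 and 31 clusters wild type lay nearer to ob/ob.

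**Figure D4:**
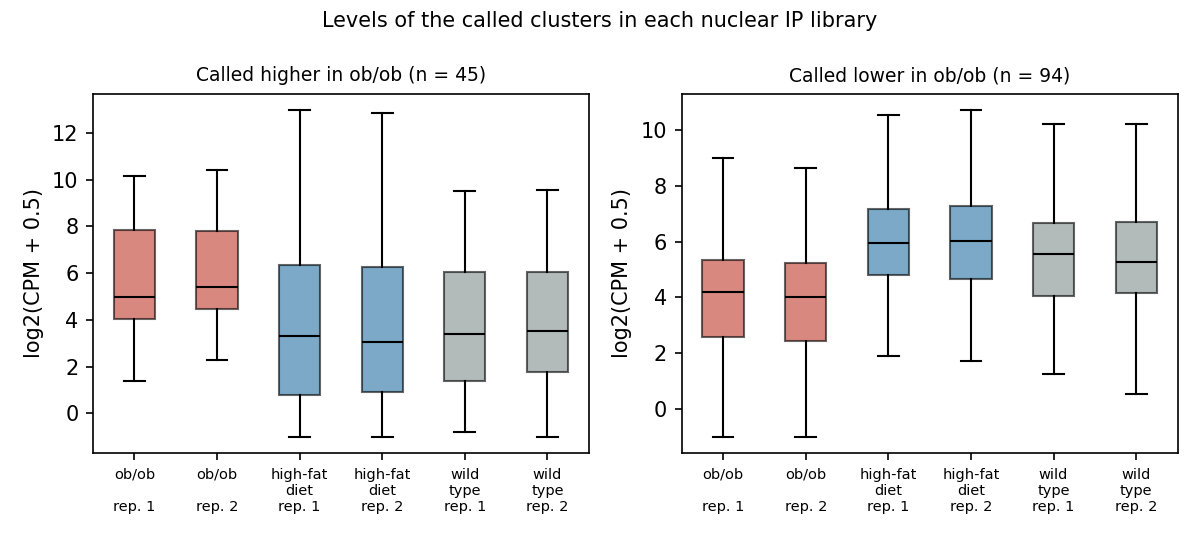
Levels, as log2(CPM + 0.5), of the 45 clusters called higher and the 94 called lower in ob/ob, in each nuclear IP library; the line is the median over clusters, the box spans the quartiles, whiskers follow matplotlib's default and clusters beyond them are not drawn. For the clusters called lower, the medians are 4.19 and 4.00 in ob/ob, against 5.95 and 6.01 in high-fat diet, and 5.55 and 5.27 in wild type.

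Whether the nuclear IP difference had the same direction in the matching total RNA was asked next, with libraries that the nuclear IP comparison does not share. The labels do not say whether both kinds of RNA came from the same livers, so their agreement may not be independent. Of the 137 called clusters that were also tested in total RNA, 132 had the same sign there (96.4%, 95% Wilson interval 91.7 to 98.4, which takes clusters as independent). They were 43 of 44 higher and 89 of 93 lower clusters. Over all 11470 clusters tested in both, 7406 had the same sign (64.6%). In total RNA itself 76 of 15487 clusters passed (0.491%), 19 higher (0.123%) and 57 lower (0.368%), and 34 of the clusters called in the nuclear IP were among them, 4 higher and 30 lower. These are 24.5% of the nuclear IP calls and 44.7% of the total RNA calls. At an unadjusted p under 0.05 in total RNA there were 106 of the 137 in the same direction and none in the opposite direction (edgeR), against 2056 and 648 of all 11470. By library size only the share with the same sign was 84.5% of 789 called clusters.

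The sizes were also set side by side. For the 44 higher clusters the median log2 fold change was 1.81 in the nuclear IP and 0.95 in total RNA, and for the 93 lower clusters -1.63 and -1.15. These clusters were picked for their nuclear IP difference, so the sizes describe a selection. Clusters picked by their total RNA calls had medians of 1.82 in the nuclear IP and 1.79 in total RNA for the 19 higher ones, of which 18 were higher in the nuclear IP, and -1.68 and -1.55 for the 51 lower ones tested in the nuclear IP, of which 49 were lower there. Across the 11470 clusters Pearson's r of the log2 fold changes was 0.624, and across the 137 called ones 0.905. The points share their libraries, and r is a description.

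**Figure D5:**
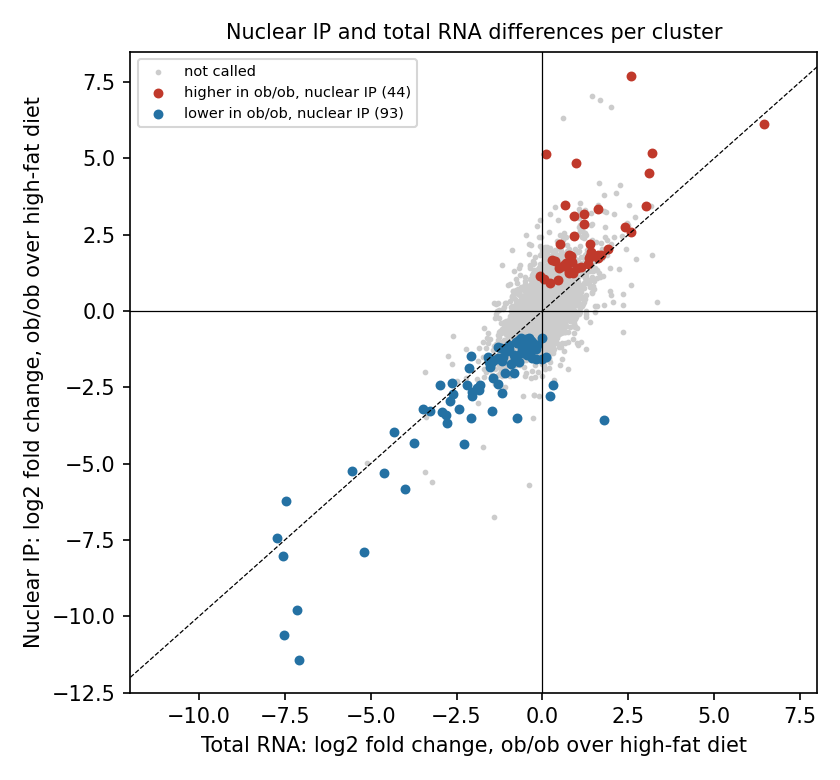
Log2 fold change of ob/ob over high-fat diet in total RNA (horizontal axis) and nuclear IP (vertical axis), 1 point per cluster, with clusters called in the nuclear IP in colour and a dashed line of equal change. Of the 137 coloured points, 132 lie in the quadrants of equal sign.

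Of the clusters named by their total RNA difference, uc029uus.1 (884 nt, 12 isoforms) had 40.2 and 75.3 CPM in ob/ob nuclear IP, against 11078 and 8911 CPM in high-fat diet, and its log2 fold change was -7.43 ± 0.40 in nuclear IP (edgeR adjusted p = 2.0e-05) and -7.73 ± 0.41 in total RNA. Cluster uc012dfi.1 (926 nt, 18 isoforms) had 6.91 and 13.2 CPM in ob/ob nuclear IP against 2760 and 2538 CPM in high-fat diet. Both belong to the run of neighbouring numbers. Nuclear IgG, scaled together with the nuclear IP libraries, held 8897 CPM of uc029uus.1 and 2901 CPM of uc012dfi.1. Cluster uc009qaq.1 (719 nt, 3 isoforms) had a smaller difference in the nuclear IP than in total RNA. In nuclear IP it had 7.74 and 5.28 CPM in ob/ob against 1.71 and 1.97 CPM in high-fat diet, a log2 fold change of 1.82 ± 0.49 that did not pass (edgeR adjusted p = 0.12), while in total RNA that of uc009qaq.1 was 3.20 ± 0.23 (edgeR adjusted p = 0.0096). This total RNA call was also lost without any 1 of the 4 units (edgeR adjusted p = 0.062 to 0.15). Without either ob/ob unit the total RNA calls of uc029uus.1 and uc012dfi.1 were lost as well (edgeR adjusted p = 0.14 in each case), and that of uc012dfi.1 also without high-fat diet unit 1 (edgeR adjusted p = 0.054). For uc009qaq.1 the nuclear IP difference less the total RNA difference was -1.37 ± 0.45 and did not pass (edgeR adjusted p = 0.48).

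The 5 called clusters of opposite sign in total RNA were uc009muk.1, uc012hdk.1, uc008sqs.1 and uc029vwf.1, which were lower in nuclear IP, and uc008tyl.1, which was higher. They are listed because of this sign and so were chosen after their values were seen. None of their total RNA differences passed (edgeR adjusted p = 0.32 to 0.87), so their total RNA direction is not established.

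A direct test of the nuclear IP difference against the total RNA difference found 0 of 13516 clusters past the threshold with edgeR (0% called), with 653 higher and 413 lower at an unadjusted p under 0.05. DESeq2 called 78 clusters, 43 higher and 35 lower. The lowest edgeR adjusted p was 0.26. A p that misses the threshold does not show that the differences were equal.

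The clusters named for that test did not pass it in the edgeR fit of 18 units and are described by their values. All 4 passed when the total RNA libraries were kept apart as replicates (edgeR adjusted p = 0.0036 to 0.0093). That setting counts as replicates the libraries that the main fit sums as runs, and it may understate the spread. Cluster uc009muk.1 (1965 nt, 1 isoform) had 5.43 and 3.72 CPM in ob/ob nuclear IP, against 24.7 and 24.3 CPM in high-fat diet, and 6.21 and 4.83 CPM in wild type. Here the high-fat diet libraries were the ones apart, and ob/ob lay with wild type. In total RNA uc009muk.1 had 40.1 and 24.6 CPM in ob/ob against 23.2 and 29.1 CPM in high-fat diet, which overlap. Its nuclear IP log2 fold change was -2.43 ± 0.29 (edgeR adjusted p = 0.0039), and the difference from total RNA was -2.75 ± 0.45 (SE, edgeR unadjusted p = 2.5e-05, adjusted p = 0.26). The difference of uc009muk.1 from total RNA passed with no filter (edgeR adjusted p = 0.021) and with the replicate number as a block (edgeR adjusted p = 0.0067), and over the alternatives and left-out libraries its adjusted p ran from 0.0017 to 0.97. The block in that fit paired libraries of the same replicate number within each mouse group, a pairing that the labels do not state. Nuclear IgG, scaled together with the nuclear IP libraries, held 26.9 CPM of uc009muk.1.

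Cluster uc008pbd.2 (4915 nt, 1 isoform) was the reverse case. It had 3.29 and 12.2 CPM in ob/ob nuclear IP, against 0 and 0.564 CPM in high-fat diet, and 2.74 and 4.18 CPM in wild type, while total RNA had 3.83 and 3.71 CPM in ob/ob against 3.77 and 3.27 CPM in high-fat diet. In high-fat diet this rests on 2 counts in all, against 122 in ob/ob. The nuclear IP call of uc008pbd.2 had an edgeR adjusted p of 0.044 and the difference from total RNA, 5.15 ± 1.02, one of 0.30. Leaving out 1 nuclear IP library moved that difference to 3.72 (without high-fat diet replicate 1), 11.26 (without high-fat diet replicate 2), 5.77 (without ob/ob replicate 1) or 3.92 (without ob/ob replicate 2). The cytoplasmic IP had 1.30 and 1.84 CPM in ob/ob against 1.33 and 1.84 CPM in high-fat diet. Clusters uc007ibm.2 (-1.54 ± 0.28, edgeR adjusted p = 0.26) and uc009ntz.2 (1.83 ± 0.41, edgeR adjusted p = 0.41) had the other differences named by the rule. That of uc007ibm.2 passed with the DESeq2 test (adjusted p = 6.1e-05). For uc008pbd.2, uc009ntz.2 and uc009muk.1 the DESeq2 test gave no adjusted p.

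Cytoplasmic IP of the same mouse models gave a further set of libraries. Whether these came from the same livers is not stated by the labels either. There 118 of 11901 clusters passed (0.992%), of which 53 were higher in ob/ob (0.445%) and 65 were lower (0.546%). Of the 139 clusters called in the nuclear IP, 137 had the same sign in the cytoplasmic IP (98.6%), against 71.1% of all 11200 clusters tested in both. The exceptions were uc008gky.1, at -0.87 on the log2 scale in the cytoplasmic IP (edgeR adjusted p = 0.52), and uc008pbd.2, at -0.0055 (edgeR adjusted p = 0.996). Neither difference passed, so the cytoplasmic IP direction of these clusters is not established. At the threshold itself, 63 of the 139 also passed in the cytoplasmic IP, 24 higher and 39 lower, which are 45.3% of the nuclear and 53.4% of the cytoplasmic calls. Pearson's r of the log2 fold changes across the 11200 clusters was 0.719. A direct test of the nuclear against the cytoplasmic IP difference found 0 of 13516 clusters with edgeR (0% called) and 2 with DESeq2. At an edgeR unadjusted p under 0.05 there were 687, against 1066 in the test against total RNA. A count near 687 is expected at this threshold if no cluster differs. The clusters named for the cytoplasmic test had edgeR adjusted p of 0.84: uc008pbd.2 (5.25 ± 1.14) and uc007utl.1 (1.77 ± 0.38) above 0 and uc009lcn.2 (-1.47 ± 0.32) and uc007seu.2 (-0.93 ± 0.21) below 0. For uc008pbd.2 that value was 3.82 and 11.34 without high-fat diet nuclear IP replicate 1 or 2, and 5.87 and 4.02 without ob/ob replicate 1 or 2.

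The nuclear IgG library gives relative levels with control beads, in 1 library from mixed mice and so with no test. Of the 45 higher clusters, 41 lay above IgG in both ob/ob libraries (91.1%), against 40.0% of the clusters not called. In both high-fat diet libraries 9 of the 45 did. Of the 94 lower clusters, 41 lay above IgG in both high-fat diet libraries (43.6%), against 38.9% of the clusters not called, and 1 did so in both ob/ob libraries. The clusters were picked for high values in those same libraries. For the lower clusters the median log2 level was 1.75 below IgG in ob/ob (a difference of -1.75) and about equal to IgG in high-fat diet (-0.047). For the higher clusters it was 1.72 above IgG in ob/ob and -0.23 against it in high-fat diet. The part that IgG background plays in these differences was not tested.

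Called clusters were found in most classes of length and isoform number. Among 160 clusters under 500 nt, 1 was higher and 5 were lower (0.625% and 3.13%). Among 800 clusters from 500 nt to below 1000 nt, 8 were higher and 15 lower (1.00% and 1.88%). Of the 15, 9 belong to the run of neighbouring numbers. None of the 409 clusters of 8000 nt or more was called with edgeR. Spearman's rho between length and the log2 fold change was -0.026 across 11531 clusters, and in the 4 single pairs of libraries it ran from -0.114 to 0.061, so no direction with length can be given. The median length was 1937 nt for the higher and 2141 nt for the lower clusters, against 2756 nt over all tested. Clusters with a single isoform made up 57.8% of the higher and 45.7% of the lower ones, against 32.8% of all tested. Of the 5 classes of abundance, the most abundant, at 7 or more on the mean log2 CPM scale, had the highest share called, 12 higher and 16 lower of 775 (1.55% and 2.06%).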

How the data were processed

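Liver RNA from hnRNPK IP, IgG and total RNA was sequenced from TruSeq libraries, per the labels' protocols. Extracts were passed over IgG beads before the hnRNPK beads. RSEM 1.2.8, TopHat2 2.0.10, Bowtie2 2.1.0, SAMtools, bcl2fastq and build mm10 are named in the submitters' processing notes, without role or order; no source used here gives the strandedness. The deposited tables hold estimated counts (expected counts) for 59121 transcripts in 31469 clusters. The deposited TPM keep no depth and were not tested. Antisense or overlapping clusters are uncertain.

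Counts were added up over the isoforms of a cluster and rounded. Comparisons used edgeR 4.0.16 (R 4.3.3, limma 3.58.1) with a quasi-likelihood test, TMM, filterByExpr and Benjamini-Hochberg adjustment on the 6 nuclear IP libraries, with ob/ob over high-fat diet as the contrast. Total RNA was fitted on 6 units, with the 2 libraries of 1 replicate number summed as runs, which the labels do not state, and differences of differences on 18 units. SE is the size of the log2 fold change divided by the root of F. Levels on the log2 scale have 0.5 added. The fits were tried on simulated counts with the same spread for every cluster. Apart from the clusters set to change, those counts had the same composition in every library, unlike the real libraries. That trial does not show how reliable the calls here are. Shares have 95% Wilson intervals and a group at 0 a floor of 3 counts, both for counting error only. The IgG library, whose molecule label differs from its title, was grouped by title and enters no test. Alternatives were DESeq2 1.42.0 (test and size factors), limma voom, library size only, no filter, single-isoform clusters, other sets of libraries, a replicate block and leaving out each library. An exact permutation test of 2 against 2 cannot go below 0.333 and was not used.

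The comparison and the clusters were chosen with earlier results of these data known. Per comparison, the 2 clusters with the largest change each way were named among those past 0.05, averaging at least 1 on the log2 CPM scale and with separate groups; where too few passed, those of lowest unadjusted p were. Gene lists, markers and sequences need gene names and were not analysed here.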

Additional observations from a re-analysis of the deposited data

Results flagged for a closer look

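The clusters below met a rule for opposite movement, in which both ob/ob libraries lay on one side of both high-fat diet libraries in nuclear IP and both ob/ob units on the other side in total RNA, where a unit sums 2 libraries, or in cytoplasmic IP. The rule looks at order only, and the test of each difference did not pass.

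The most counted cluster, uc012ath.2, had a log2 fold change of -1.25 in nuclear IP and 1.28 in total RNA, and the difference had an edgeR adjusted p of 0.46. By single total RNA library the groups of uc012ath.2 overlapped, at 12237 to 51366 CPM by library size in ob/ob against 8763 to 15550 CPM in high-fat diet, so the opposite order holds for the summed units only. The groups of the other clusters below stayed apart by single library. Cluster uc009ntz.2 had 21.7 and 37.4 CPM in ob/ob nuclear IP against 8.55 and 13.5 CPM in high-fat diet, a log2 fold change of 1.46, and -0.35 in total RNA (edgeR adjusted p of the difference 0.41). Cluster uc007utl.1 had 5.43 and 7.44 CPM in ob/ob nuclear IP against 3.88 and 5.08 CPM in high-fat diet, a log2 fold change of 0.55, with -0.43 in total RNA and -1.19 in cytoplasmic IP (edgeR adjusted p of the differences 0.46 and 0.84).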

How the results depend on the processing

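The main limits are 2 libraries a group, the dominance of 1 cluster in the IP libraries, and libraries of 5336060 to 10581089 counts, in which clusters of few counts are poorly measured. In the nuclear IP, against 139 called clusters, 797 passed by library size only (100 shared), 746 with no filter (139 shared), 336 with the DESeq2 test (136), 368 in a fit of the 4 libraries alone (139), 406 in a fit of 18 units (132), 91 with limma voom (90) and 65 with single-isoform clusters only, of 3786 tested. Leaving out a replicate gave 24 to 415. For total RNA the count of 76 became 49 by library size only, 144 with no filter, 36 with single-isoform clusters, 1433 with the DESeq2 test and 4885 when the summed libraries were kept apart as replicates. It was 0 to 1321 with a replicate left out: 0 without either ob/ob unit, 7 and 12 without high-fat diet unit 1 or 2, and 1321 and 1219 without wild-type unit 1 or 2. For the nuclear IP difference against total RNA the count of 0 became 2 with no filter, 78 with the DESeq2 test, 147 with total RNA libraries kept apart, and 0 or 1 with a replicate left out. Against the cytoplasmic IP it became 2 with the DESeq2 test. A group left with 1 library is assumed to vary like the others.

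With a replicate block the counts were 206, 33, 7 and 0 in these 4 comparisons. The block was the replicate number across mouse groups in the nuclear IP and total RNA fits. In the differences of differences it was the number within each mouse group, across kinds of RNA. The labels do not say that a number marks a shared animal or day. Deviations of same-numbered nuclear IP libraries correlated at -0.031 between ob/ob and high-fat diet, and those of nuclear IP and total RNA at 0.410 for ob/ob, against -0.168 for high-fat diet. With the numbers of high-fat diet nuclear IP exchanged, a pairing added after seeing the data, the last 2 counts were 14 and 0.

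The share of called clusters with the same sign in total RNA was 84.5% by library size only, 91.5% with no filter, 83.9% for clusters with an unadjusted p under 0.05, and 90.7% to 100% with a replicate left out. It was 96.1% without the clusters numbered 18950 to 18961. The relation with length ran from -0.112 to 0.063 with a replicate left out. Of 257 recomputed values of named clusters, 18 lost and 13 gained a call and none changed direction. Clusters were named for separate groups and for large changes or low p, so the kept direction follows largely from that choice. Values to which DESeq2 gave no adjusted p were counted as not called.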
